A study of Mus musculus with 8 samples.

Results

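The transcripts of 10 genes of the BCL2 family were followed through all 8 libraries of a knockdown experiment in mouse E14 embryonic stem cells, an established pluripotent line. The 10 genes were picked by symbol out of 19896 gene IDs listed in both expression tables. They comprise 4 pro-survival genes (Bcl2, Bcl2l1, Bcl2l2 and Mcl1), 1 effector (Bak1) and 5 genes of the BH3-only class (Bcl2l11, Bid, Bik, Bmf and Bad).

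Proteins of this family decide at the mitochondrial outer membrane whether a cell undergoes apoptosis. The effectors BAK and BAX can form pores that release cytochrome c, pro-survival members hold the effectors in check, and BH3-only proteins either occupy the pro-survival members or activate the effectors directly. In embryonic stem cells MCL1 and BCL-XL (the product of Bcl2l1) are known survival factors, and much of the family's regulation acts on protein stability, phosphorylation and location, which RNA levels do not show.

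The 4 groups held 2 libraries each. Cct5 KD and Cct7 KD cells carried a short hairpin RNA, switched on by doxycycline through a Tet-on vector, that targets Cct5 or Cct7; these genes encode subunits of the CCT chaperonin that folds actin and tubulin, and each had its own control (Cct5 KD Ctr, Cct7 KD Ctr) infected with the empty vector, which holds no hairpin. Puromycin selection (0.5 µg/ml) had lasted 14 days. The controls, like the knockdown cells, were then kept with 2 µg/ml of doxycycline over 2 days, under serum and LIF. Poly(A) RNA was sequenced, and the deposited values are FPKM (fragments scaled by transcript length and library depth), so that levels of different genes can be compared per length. Nothing in the labels says that the 2 libraries of a group came from separate cultures, so p-values measure the spread between libraries, which may be technical.

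Some properties of the libraries bear on every value given here. The targeted genes were low in their own knockdowns, with Cct7 at 269 and 280.1 FPKM in its control and 14.4 and 17.8 in Cct7 KD, and Cct5 at 368 and 367 in its control and 70.8 and 73.4 in Cct5 KD. The Cct5 KD values of nearly all genes equalled the same-numbered Cct7 KD value times 1.125 plus a remainder that was not negative (19881 of 19896 IDs), and the multiple made up 71.3% of the FPKM total of each Cct5 KD library. The 2 knockdowns are therefore not independent, and for the 10 genes the remainder is given as well. The targeted gene Cct5 was among the 15 IDs that did not follow this relation. It stood at 280 and 271 FPKM in Cct7 KD, above its values in Cct5 KD. Between about 18900000 and 54700000 fragments underlay the 6 other libraries, while no depth was accepted for Cct5 KD. Summed FPKM of 6 embryonic stem cell markers lay between 1750 and 1835 in controls, 409 and 414 in Cct7 KD and 691 and 703 in Cct5 KD. Primitive endoderm markers summed to 1.87 to 2.31 FPKM in controls, 5.55 to 6.05 in Cct7 KD and 7.81 to 8.34 in Cct5 KD. The 3 fibroblast markers listed in both tables, of 7, summed to at most 9.90 FPKM in every library. The 4 trophoblast markers listed in both, of 5, summed to at most 3.70. None of these listed markers was at 0 in both libraries of a group. In bulk RNA, a change in the kinds of cells present and a change in RNA per cell cannot be told apart, and the part of cell state in the results below was not tested.

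In control cells Mcl1, whose short-lived product binds BAK and BIM, was by far the most abundant of the 10 transcripts. Over the 4 control libraries it ranged from 157 to 167 FPKM with a median of 163, and made up 69.2% to 70.7% of the family's summed FPKM. Bid (16.8 to 18.6 FPKM) and Bak1 (16.4 to 17.7) followed and overlapped each other. Bcl2l11 (9.04 to 9.54), Bmf (8.44 to 9.13) and Bcl2l1 (8.22 to 9.10) formed the next level, in which each overlapped the next. Below them came Bcl2l2 (3.81 to 4.46), Bad (2.72 to 2.97) and Bik (0.900 to 1.71), with no overlap between neighbours. Bcl2, the gene that gave the family its name, was lowest at 0.0533 to 0.106 FPKM. For every one of the 10 genes, FPKM multiplied by the length of 1 annotated transcript and by the estimated depth gave whole numbers of fragments, within 0.0632 of a fragment for Mcl1 and 0.00563 or less for the others. By this count Bcl2 rested on 12 to 21 fragments per control library and Bik on 18 to 49, against 11576 to 29434 for Mcl1. The 2 sets of controls did not differ in any of the 9 members tested with limma at an adjusted p under 0.05 (background 0.0% of 12762 genes). At an unadjusted p under 0.05, 2 of the 9 did, as did 2296 of the 12762 genes. These were Bik, lower by a log2 difference of -0.37 in the Cct5 controls, and Mcl1, lower by -0.07.

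**Figure D1:**
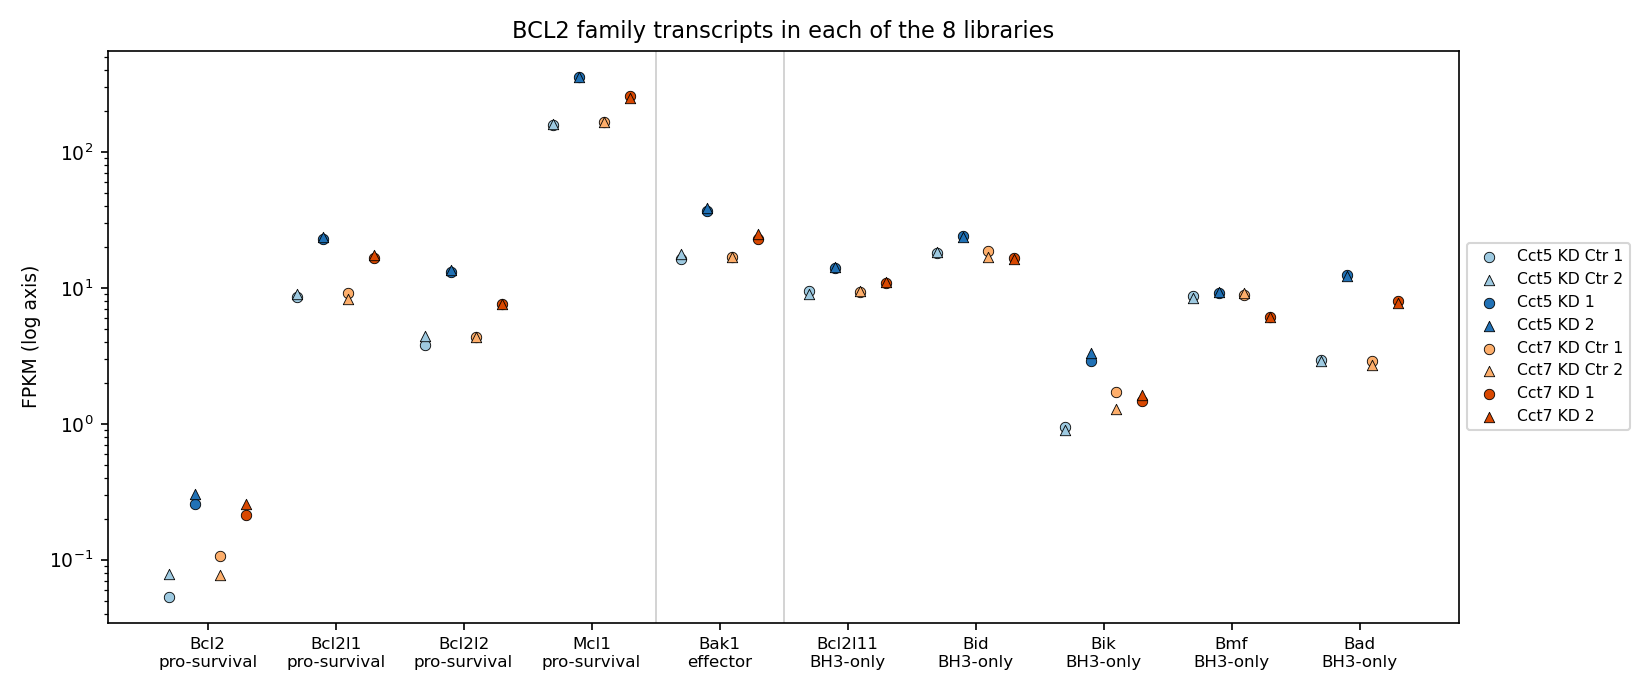
FPKM (log axis) of the 10 BCL2 family genes in each of the 8 libraries, grouped by role; circles and triangles are replicates 1 and 2. Mcl1 stands above the other 9 genes in every library, from 157 FPKM in a control to 358 in Cct5 KD, and Bcl2 is lowest in every library.

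The genes lie on different chromosomes, apart from 3 on chromosome 2. Coordinates are on GRCm38 (mm10), from GENCODE. The pro-survival genes are Bcl2 at chr1:106538178-106714274 (minus strand), Bcl2l1 at chr2:152780668-152831728 (minus), Bcl2l2 at chr14:54883377-54888234 (plus) and Mcl1 at chr3:95658788-95663176 (plus). Bak1 lies at chr17:27019810-27029009 (minus). The BH3-only genes are Bcl2l11 at chr2:128126038-128162547 (plus), Bid at chr6:120891930-120916853 (minus), Bik at chr15:83526862-83544634 (plus), Bmf at chr2:118528757-118549687 (minus) and Bad at chr19:6941861-6951899 (plus). Exons of Bid share 628 bases with Bcl2l13 on the opposite strand, those of Bad share 524 with Gpr137, those of Bak1 up to 437 with Ggnbp1 and those of Bcl2 558 with the antisense gene D630008O14Rik. Exons of Bcl2l2 share 594 bases with the read-through gene model Gm20521 on the same strand. The libraries were made strand-specific, but the sources used here do not say whether counting used the strand, so fragments from these stretches cannot be assigned with certainty.

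Because Mcl1 and Bad were higher and Bmf was lower in Cct7 KD, the 250 bases before their RefSeq start sites (GRCm38.p6) are shown for comparison, 5′ to 3′ on the strand of the gene. The windows are chr3:95658471-95658720 for Mcl1 (plus), chr19:6941611-6941860 for Bad (plus) and chr2:118549687-118549936 for Bmf (minus). Capitals mark the GC box (GGGCGG or its reverse complement CCGCCC) in Mcl1 and Bad, and the CCAAT box (CCAAT or ATTGG) in Bmf.
Mcl1: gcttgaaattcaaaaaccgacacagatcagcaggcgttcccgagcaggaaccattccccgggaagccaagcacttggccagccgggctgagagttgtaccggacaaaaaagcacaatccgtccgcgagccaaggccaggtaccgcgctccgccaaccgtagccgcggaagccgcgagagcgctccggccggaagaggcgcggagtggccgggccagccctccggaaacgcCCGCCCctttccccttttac
Bad: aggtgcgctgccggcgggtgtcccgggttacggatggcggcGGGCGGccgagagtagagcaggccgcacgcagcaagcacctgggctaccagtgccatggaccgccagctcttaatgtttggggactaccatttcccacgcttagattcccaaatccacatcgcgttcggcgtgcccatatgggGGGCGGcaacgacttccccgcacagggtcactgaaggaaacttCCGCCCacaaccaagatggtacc
Bmf: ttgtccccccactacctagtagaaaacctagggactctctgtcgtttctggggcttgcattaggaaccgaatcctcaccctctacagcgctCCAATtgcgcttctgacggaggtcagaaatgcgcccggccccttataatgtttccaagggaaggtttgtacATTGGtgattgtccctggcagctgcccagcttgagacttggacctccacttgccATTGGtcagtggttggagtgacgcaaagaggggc
Windows were at hand for 9 of the 10 genes, not for Bik, and the most upstream was used where a gene had several. That of Mcl1 ends before the GENCODE start of the gene (95658788). The bases that follow it did not match the start of a GENCODE transcript. The window of Bak1 (chr17:27028628-27028877) lies inside the GENCODE gene. Those of Bcl2l2, Bid and Bmf reach into their genes, Bmf only at its last base (118549687). The motif counts thus include bases that are not upstream of the GENCODE gene start. A GC box was present in 6 of the 9 (Bcl2, Bcl2l2, Mcl1, Bcl2l11, Bid and Bad), against 33.0% of all 27025 windows, and a CCAAT box in 2 (Bcl2l11 and Bmf), against 34.5%. The 6 windows with a GC box were 62.8% to 74.8% G or C. Those without it (Bcl2l1, Bak1 and Bmf) were 47.6% to 58.4%, and the median of all windows was 52%. The GC box was not counted against windows of like GC content. Bcl2l11 alone of the 9 held the FOXO motif GTAAACA (or TGTTTAC), present in 3.06% of windows. The TATA box TATAAA (13.0% of windows), the E-box CACGTG (6.04%), the cAMP response element TGACGTCA (1.60%), the AP-1 motif TGAGTCA (4.43%), the palindromic NRF1 motif (0.777%) and the amino acid response element TGATGCAAT (0.185%) matched in none of the 9, on either strand. GC boxes were thus present both in genes that were higher (Mcl1, Bad) and in one that was not (Bid). These matches describe the letters in the windows only.

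The comparison of Cct7 KD with its control asked how the family's transcripts stood after 2 days of hairpin induction. Each change is the limma estimate on log2(FPKM + 1), and for genes with few FPKM this scale gives too small a change. Of the 9 members with a mean of at least 1 FPKM, 6 were higher, 1 was lower and 2 did not pass the test (Bcl2 fell below that mean). Over all 13588 genes tested, 49.3% were called higher and 32.0% lower, so a call in itself was common. The members' median change was 0.48, against 0.15 over all genes. After median-of-ratios scaling, which sets the typical gene near 0 (median of all genes -0.07), 5 members were higher, 2 lower and 2 not called, against 37.1% and 44.0% of all genes, and the members' median was 0.24. Counted by overlap alone, 6 of the 9 tested members had both knockdown libraries above both controls (54.1% of all genes) and 2 had both below (36.5%). With a fold of at least 2 asked for as well, 1 member, Bad, was called, against 20.1% of all genes.

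Among the pro-survival genes, Bcl2l1 stood at 9.10 and 8.22 FPKM in the Cct7 controls and at 16.7 and 17.3 in Cct7 KD. Both knockdown libraries lay above both controls, 1.96-fold by the ratio of the group means, and the difference passed the test (log2 change 0.90, SE 0.0579, adjusted p = 4.91e-05). Bcl2l2, which encodes BCL-W, was 4.36 and 4.38 FPKM in controls and 7.64 and 7.65 in Cct7 KD. Its libraries differed little within each group, and the change was 0.69 (SE 0.0518, adjusted p = 9.02e-05). Mcl1 went from 167 and 167 FPKM to 256 and 250.4, again with no overlap. That is 1.52-fold in FPKM (log2 change 0.60, SE 0.0256, adjusted p = 1.26e-05), the smallest fold of the 4 pro-survival genes, on the largest number of fragments. After scaling, the log2 changes of Bcl2l1, Bcl2l2 and Mcl1 were 0.67, 0.47 and 0.35 and all 3 passed the test.

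Bcl2 itself was 0.106 and 0.0775 FPKM in the Cct7 controls and 0.214 and 0.258 in Cct7 KD. These values stand for 17 and 13 fragments in controls and 32 and 35 in knockdown libraries, and the 2 groups did not overlap. The 95% Poisson intervals, which cover counting error only, ran from 0.0616 to 0.169 FPKM in the first control and from 0.146 to 0.302 in the first knockdown library. These 2 intervals overlapped, while that of the second control ended at 0.133, below those of both knockdown libraries. Its ratio of means was 2.57. Without the filter on low values limma gave a log2 change of 0.18 (adjusted p = 0.0261). Even so the level in Cct7 KD stayed far below the control level of every other member.

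Bak1, the effector that MCL1 and BCL-XL restrain, was 16.8 and 17.0 FPKM in controls and 23.0 and 24.9 in Cct7 KD. Both knockdown libraries were higher (log2 change 0.48, SE 0.0466, adjusted p = 2.44e-04), and the change was 0.24 after scaling (adjusted p = 0.00375). The other effector, Bax, was 37.9 and 38.3 FPKM in controls and 42.2 and 38.7 in Cct7 KD. Its change of 0.08 did not pass the test (adjusted p = 0.146), and its direction hung on the setting: it was -0.16 and called lower with median-of-ratios scaling (adjusted p = 0.0256), but 0.14 and called higher both with scaling to a common total (adjusted p = 0.0271) and without replicate 2 of Cct7 KD (adjusted p = 0.0241). The ratio of Bak1 to Bax FPKM, which scaling cannot move, was 0.443 in both Cct7 controls and 0.546 and 0.644 in the knockdown libraries.

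The BH3-only genes did not move together. Bad, whose product binds BCL-XL, BCL-W and BCL2 and is held back by phosphorylation, was 2.90 and 2.72 FPKM in controls and 8.02 and 7.77 in Cct7 KD. This was the largest fold of the 10 genes, 2.81 by the ratio of means, with no overlap (log2 change 1.23, SE 0.0607, adjusted p = 2.0e-05; 1.02 after scaling). Bmf, whose product is held by dynein light chain at the cytoskeleton, went the other way, from 8.85 and 9.13 FPKM to 6.12 and 6.10. Both knockdown libraries lay below both controls (log2 change -0.49, SE 0.0486, adjusted p = 2.68e-04; -0.71 after scaling).

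Bcl2l11, which encodes BIM, a binder of all pro-survival members, was 9.32 and 9.54 FPKM in controls and 10.8 and 11.1 in Cct7 KD. The groups did not overlap and the difference passed the test as deposited (0.20, adjusted p = 0.00828), but it was -0.03 after scaling and no longer passed (adjusted p = 0.510), so its direction depended on the scale. Bid, whose product is cut by caspase-8 to its active form, was 18.6 and 16.8 FPKM in controls and 16.5 and 16.4 in Cct7 KD. Both knockdown libraries lay just below the lower control, and the change of -0.10 did not pass the test (adjusted p = 0.144). It was -0.34 after scaling and passed (adjusted p = 0.00232). Bik, an inducer of apoptosis at the endoplasmic reticulum, was 1.71 and 1.27 FPKM in controls and 1.48 and 1.63 in Cct7 KD. Its groups overlapped, and with 28 to 36 fragments per library a difference of this size (0.04, SE 0.113, adjusted p = 0.747; -0.11 after scaling) was not detectable.

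**Figure D2:**
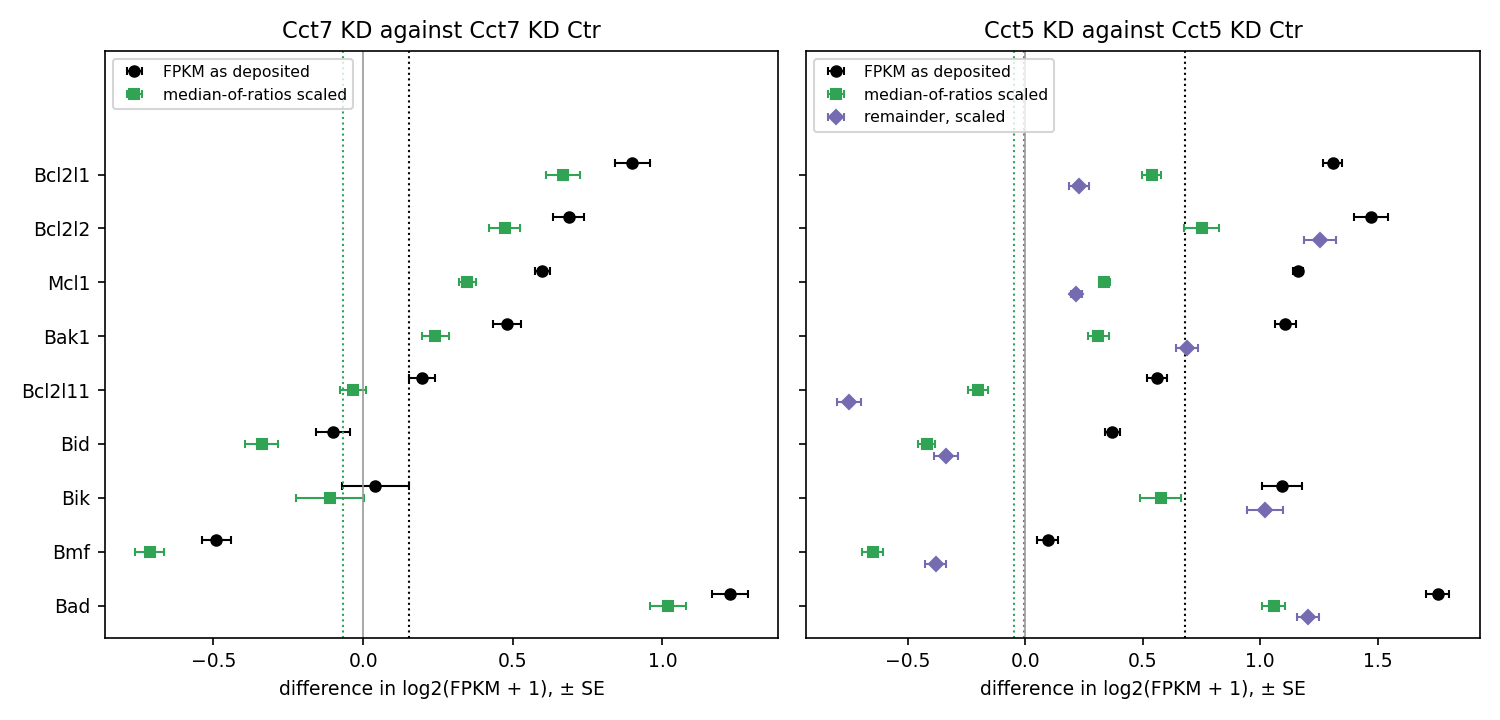
Differences in log2(FPKM + 1) between each knockdown and its control for the 9 members tested (points, with SE); black is FPKM as deposited, green after median-of-ratios scaling and purple the scaled remainder of Cct5 KD. Dotted lines mark the median of all genes. As deposited, Bad lies highest at 1.23 in Cct7 KD and Bmf lowest at -0.49, and after scaling Bmf lies at -0.71. The sign of Bcl2l11 and Bik in Cct7 KD, and of Bcl2l11, Bid and Bmf in Cct5 KD, changed with scaling.

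Cct5 KD was compared with its own control in the same way. As deposited, 8 of the 9 tested members were higher, none was lower and Bmf did not pass the test, where 78.0% of 14179 genes were higher and 11.3% lower. After median-of-ratios scaling 6 members were higher and 3 lower (all genes 37.7% and 43.7%), and the members' median fell from 1.11 to 0.34 while that of all genes fell from 0.68 to -0.05. Scaled to a common FPKM total, 6 were higher and 2 lower (50.5% and 31.9% of all genes). All 9 tested members had both knockdown libraries above both controls, as did 81.0% of all genes, and none had both below (13.3%). With a fold of at least 2, 6 members were called as deposited (Bcl2l1, Bcl2l2, Mcl1, Bak1, Bik and Bad), against 33.3% of all genes. Bik averaged 0.925 FPKM in the Cct5 controls, under the filter of 1, and 3.11 in Cct5 KD. It thus entered the counts as deposited only through Cct5 KD, and the filter favoured a rise for it. The FPKM total over the shared IDs was 745380 and 743612 in Cct5 KD, against 495289 and 496418 in its controls. After median-of-ratios scaling Bad kept a log2 change above 1 (1.06). Those of Bcl2l2 (0.75), Bik (0.58), Bcl2l1 (0.54), Mcl1 (0.34) and Bak1 (0.31) were below 1.

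Bad had the largest change among the tested members in Cct5 KD as well. It stood at 2.97 and 2.89 FPKM in the Cct5 controls and at 12.4 and 12.2 in Cct5 KD, 4.19-fold by the ratio of means, with no overlap (log2 change 1.76, SE 0.0483, adjusted p = 1.03e-06; 1.06 after scaling). Bcl2l2 went from 3.81 and 4.46 FPKM to 13.0 and 13.4, with every knockdown value far above the controls (1.47, SE 0.0717, adjusted p = 7.28e-06; 0.75 after scaling). Bcl2l1 went from 8.53 and 8.96 FPKM to 22.8 and 23.5. It was 2.65-fold higher with no overlap (1.31, SE 0.0410, adjusted p = 1.49e-06; 0.54 after scaling). Mcl1 was 157 and 159.5 FPKM in controls and 358 and 353 in Cct5 KD. Its 2.24-fold difference (1.16, SE 0.0196, adjusted p = 3.75e-07) became 0.34 on the scaled log2 values and still passed. Bak1 rose from 16.4 and 17.7 FPKM to 37.1 and 38.7 (1.11, SE 0.0459, adjusted p = 3.87e-06; 0.31 after scaling).

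The low genes Bik and Bcl2 were also higher in Cct5 KD. Bik was 0.950 and 0.900 FPKM in the Cct5 controls and 2.90 and 3.32 in Cct5 KD, above both controls. Its log2 change from limma was 1.09 (SE 0.0856, adjusted p = 5.55e-05), and 0.58 after scaling. The lower of its Cct5 controls rested on 18 fragments. Bcl2 was 0.0533 and 0.0786 FPKM in controls and 0.256 and 0.306 in Cct5 KD, a ratio of means of 4.26. Without the filter its log2 change from limma was 0.26 (adjusted p = 0.00549). The remainder made up only 5.82% and 5.16% of its Cct5 KD values, and the rest was the multiple of Cct7 KD.

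For the 3 remaining BH3-only genes the direction in Cct5 KD was set by the scale. Bcl2l11 went from 9.52 and 9.04 FPKM to 14.0 and 14.3, a log2 change of 0.56 (adjusted p = 4.78e-05) that was -0.20 after scaling (adjusted p = 0.00581). Bid went from 18.0 and 18.5 FPKM to 24.2 and 23.6, a change of 0.37 (adjusted p = 9.07e-05) that was -0.42 after scaling (adjusted p = 8.11e-05). Bmf was 8.76 and 8.44 FPKM in controls and 9.23 and 9.27 in Cct5 KD. It did not pass as deposited (0.09, adjusted p = 0.0841) and was -0.65 after scaling (adjusted p = 3.49e-05). As deposited, then, none of the members was called lower in Cct5 KD, and relative to the typical gene these 3 were.

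Since Cct5 KD contains the multiple of Cct7 KD, the remainder was set against the Cct5 controls by itself, after scaling. It made up 42.5% and 44.8% of the Cct5 KD value for Bik, 34.0% and 35.9% for Bcl2l2, 30.1% and 27.6% for Bak1 and 27.0% and 28.2% for Bad. It made up less for Bmf (25.5% and 26.0%), Bid (23.4% and 21.8%), Mcl1 (19.4% and 20.3%), Bcl2l1 (17.6% and 17.1%), Bcl2l11 (13.6% and 12.6%) and Bcl2 (5.82% and 5.16%). The members thus differed widely in how much of their Cct5 KD value the Cct7 KD libraries did not already hold. In the remainder, too, multiplying by transcript length and depth gave whole fragments for all 10 genes, 65 and 74 for Bik and 6 and 6 for Bcl2. Against the Cct5 controls, 6 members were higher and 3 lower in the remainder, where 42.1% of 11703 genes were higher and 42.8% lower. Bcl2l2 (1.25, adjusted p = 7.64e-06), Bad (1.20, adjusted p = 2.02e-06), Bik (1.02, adjusted p = 3.43e-05) and Bak1 (0.69, adjusted p = 1.96e-05) had the largest rises. Bcl2l1 and Mcl1 were higher by 0.23 and 0.22. Bcl2l11 (-0.75, adjusted p = 2.22e-05), Bmf (-0.38, adjusted p = 2.69e-04) and Bid (-0.34, adjusted p = 9.30e-04) were lower. Bcl2 in the remainder was 0.0149 and 0.0158 FPKM before scaling, below the 0.0533 and 0.0786 of the Cct5 controls, and it was below the filter. The FPKM total of the remainder was also lower, at 214123 and 213575 against 495289 and 496418 in those controls.

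**Figure D3:**
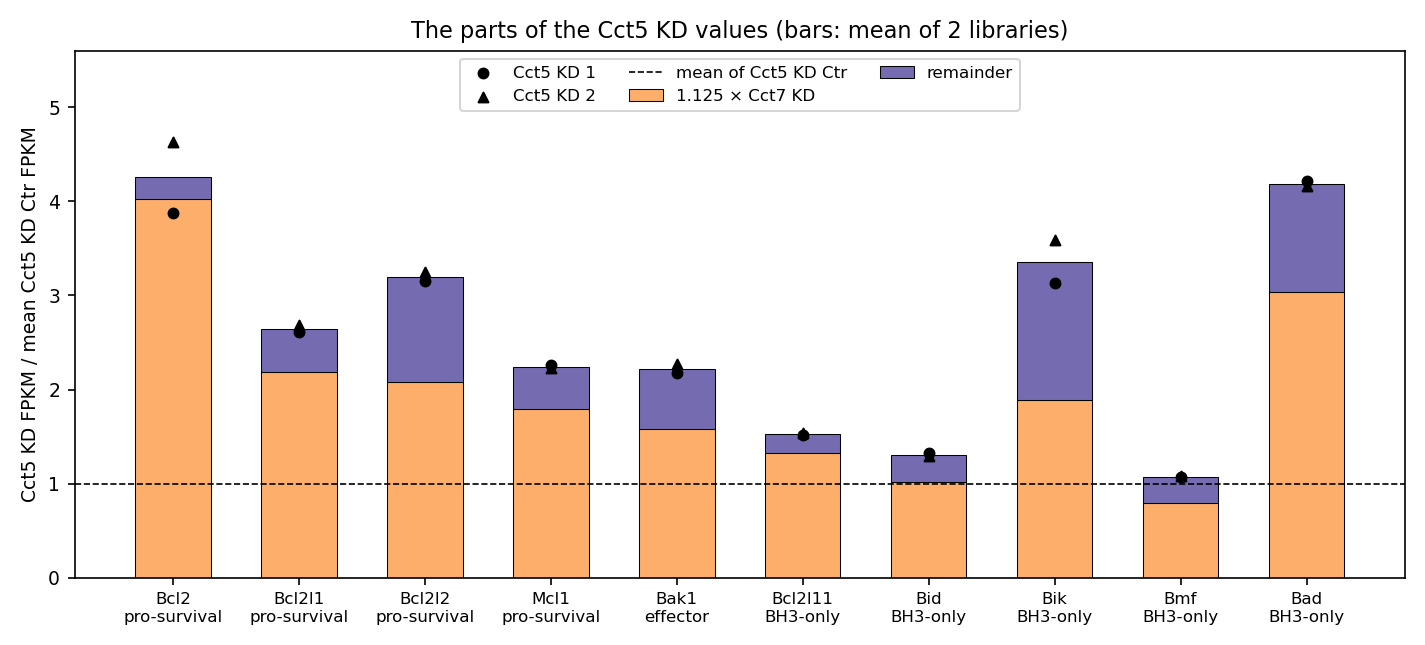
Cct5 KD FPKM of each member divided by the mean of its Cct5 controls (dashed line at 1); bars are the mean of 2 libraries, split into 1.125 times Cct7 KD (orange) and the remainder (purple), and points are single libraries. Bik and Bcl2l2 have the largest share of remainder and Bcl2 the smallest.

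Ratios between members within a library do not depend on how libraries are scaled. Summed FPKM of the 4 pro-survival members over that of the 5 BH3-only members was 4.22 and 4.36 in the Cct5 controls and 4.36 and 4.55 in the Cct7 controls. It was 6.55 and 6.41 in Cct7 KD and 6.28 and 6.23 in Cct5 KD, above all 4 controls, and 5.38 and 5.64 in the remainder, which is likewise above them. Most of the sum was Mcl1, but without Mcl1 the knockdown libraries were still higher, at 0.573 to 0.594 against 0.308 to 0.340 in controls. The rise of the ratio with Mcl1 depended on which BH3-only genes were summed. With the BH3-only genes Pmaip1, Bbc3 and Hrk added, a sum chosen after the data had been seen, the ratio was 2.73 to 2.79 in the 4 controls, 2.75 and 2.74 in Cct7 KD, within the range of the controls, and 2.55 and 2.55 in Cct5 KD and 1.98 and 2.00 in the remainder, below it. Without Mcl1, the ratio to the 8 genes was 0.197 to 0.217 in controls and 0.234 to 0.251 in the 4 knockdown libraries. In the remainder this ratio was 0.2149 in replicate 1, within the range of the controls, and 0.2199 in replicate 2, just above it. The remainder by itself thus did not show a clear rise of this ratio. The sums weigh transcripts, not proteins.

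Among the 5 BH3-only members, Bad took a larger share in the knockdown libraries. Bad held 6.89% to 7.38% of their summed FPKM in the 4 controls, 18.7% and 18.1% in Cct7 KD, 19.7% and 19.4% in Cct5 KD and 23.0% and 24.1% in the remainder. Bmf held 21.3% to 23.1% in controls and 14.2% to 14.8% in the 4 knockdown libraries, and Bid 42.6% to 46.4% and 37.7% to 38.5%. Bad FPKM was therefore below that of Bmf in controls, with a ratio of 0.298 to 0.342, and above it in knockdown libraries, with a ratio of 1.27 to 1.34. Bcl2l11 held 22.5% to 24.2% in controls and 22.4% to 25.9% in knockdown libraries, with overlap, but 13.2% and 12.6% in the remainder. Of the 8 BH3-only genes with Pmaip1, Bbc3 and Hrk, the largest share in knockdown libraries was that of Pmaip1, 47.6% to 48.7% against 15.4% to 16.4% in controls. Bad held 4.23% to 4.85% of that wider sum in controls and 7.72% to 8.01% in knockdown libraries. The ratio of Bcl2l1 to Bcl2l11, a survival gene against one of its antagonists, was 0.861 to 0.991 in controls and 1.55 to 1.64 in knockdown libraries. In the order of levels, Bid was above Bak1 in 3 of the 4 controls and below it in all 4 knockdown libraries. Since Cct5 KD holds the multiple of Cct7 KD, these 4 libraries are not separate observations. In the remainder Bmf held 16.3% and 16.9% of the 5 genes and Bid 39.0% and 36.1%. There the ratio of Bad to Bmf was 1.42 and 1.43, that of Bcl2l1 to Bcl2l11 was 2.10 and 2.24, and Bid was below Bak1.

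**Figure D4:**
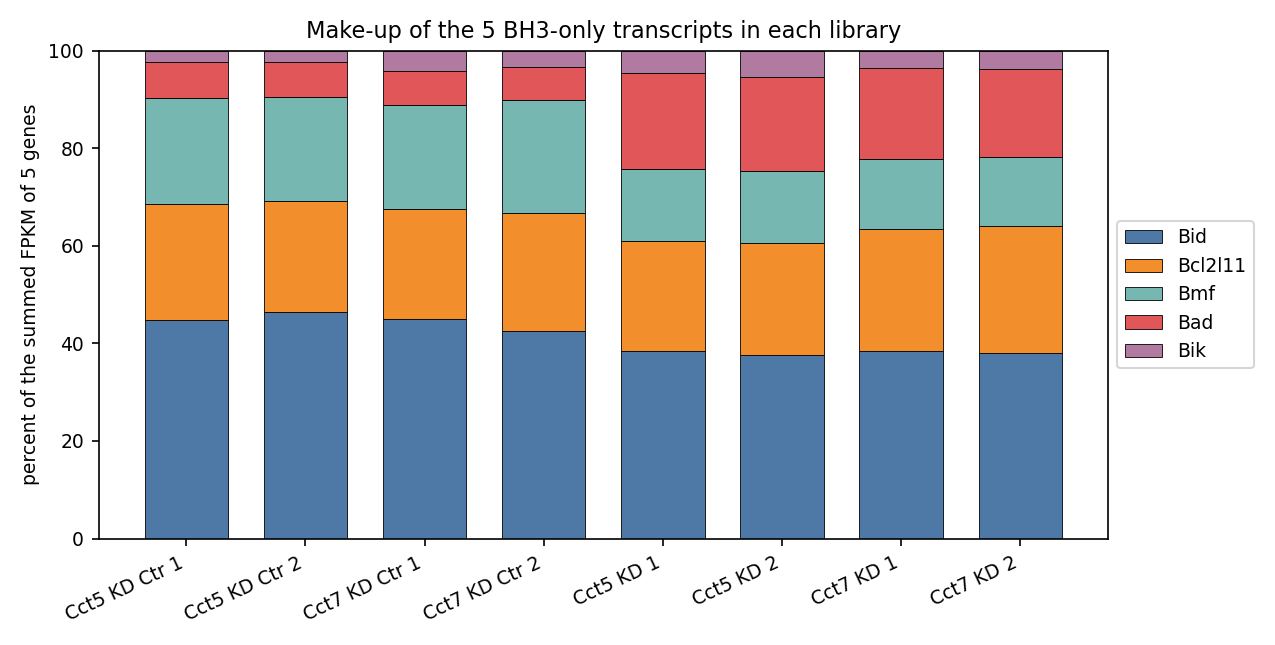
Share of each of the 5 BH3-only members in their summed FPKM (percent, vertical axis) in each library; each bar is 1 library. The share of Bad is 6.89% to 7.38% in the 4 controls and 18.1% to 19.7% in the 4 knockdown libraries.

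The rest of the family and the pathway around it were counted in Cct7 KD for comparison. Of 11 other BCL2 family and BH3 genes tested, 7 were higher and 2 lower, with a median change of 0.28; after scaling 4 were higher and 4 lower. As for the members, the shares over all genes were 49.3% higher and 32.0% lower as deposited, and 37.1% and 44.0% after scaling. The largest rise was that of Pmaip1, which encodes NOXA, a BH3-only protein that binds MCL1, from 10.6 and 10.5 FPKM to 48.8 and 47.9 (log2 change 2.09, adjusted p = 1.16e-06; 1.85 after scaling). Bbc3, which encodes PUMA, fell from 9.49 and 9.46 FPKM to 4.35 and 3.65 (-1.07, adjusted p = 8.75e-05). Bok, an effector-like member, also fell (-0.88, adjusted p = 5.67e-05). Bnip3 and Bnip3l, mitophagy receptors with BH3-like regions, rose by 1.18 and 0.84, and Bcl2l13 by 0.40. Hrk (0.31) and Becn1 (0.28), which encodes the autophagy protein Beclin 1, passed as deposited but not after scaling (0.10 and 0.04). Bcl2l12 was 0.18 and -0.02 on the respective scales, and its call was lost under 7 of the other settings. Bcl2l14, at -0.19, did not pass as deposited (adjusted p = 0.170) and was -0.39 after scaling.

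Downstream of the mitochondria the lists were mixed. Of 14 genes of the caspases and apoptosome, 7 were higher and 4 lower (median 0.15, the same as over all genes), and 5 and 5 after scaling. Dffa, the inhibitor of the apoptotic nuclease, rose by 1.13 and Casp6 by 0.81, whereas Parp1, a caspase substrate, fell by 1.65, Casp2 by 0.51 and Aifm1 by 0.17. Of 8 inhibitors of apoptosis and their antagonists, 4 were higher and 3 lower, and 3 and 4 after scaling. The counts of both lists were near the shares over all genes. Xiap, an inhibitor of caspases, rose by 0.96, and Birc5 (-0.49), Htra2 (-0.57) and Birc2 (-0.36) fell. All 9 tested genes of the death receptor branch were higher as deposited, with a median of 0.79, and 8 of them after scaling (median 0.63). Fadd, Fas and, among the inhibitors, Sept4 had Cct7 control means under 1 FPKM (0.722, 0.841 and 0.496). As deposited they passed the filter only through the knockdown libraries, so the filter favoured a rise for them. The same held in Cct5 KD, with control means of 0.906, 0.621 and 0.429 FPKM. The death receptor genes included Casp8, which cuts BID (1.57, adjusted p = 2.26e-05), the adaptor Tradd (1.46), the caspase-8 regulator Cflar (0.81) and the receptor gene Tnfrsf10b (0.47). In Cct5 KD the numbers called higher and lower were 8 and 1 of the 11 family genes, 12 and 1 of the 14 caspase and apoptosome genes, 7 and 1 of the 8 inhibitors and 9 and 0 of the 9 death receptor genes, where 78.0% of all genes were higher and 11.3% lower. With scaling they were 5 and 4, 5 and 6, 2 and 4, and 8 and 0 (all genes 37.7% and 43.7%). In the remainder they were 6 and 3, 4 and 6, 3 and 4 of 7 tested, and 6 and 1 of 7 tested (all genes 42.1% and 42.8%). Most of these counts were near the shares over all genes.

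**Figure D5:**
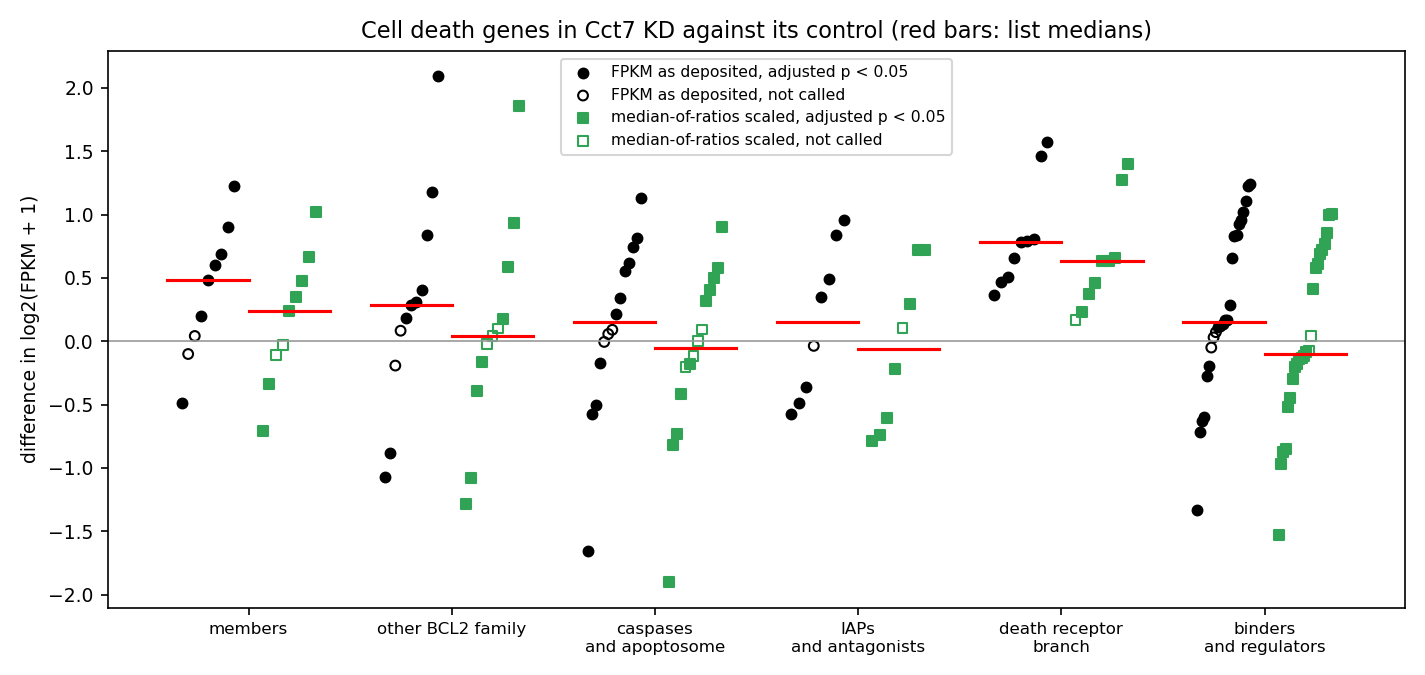
Difference in log2(FPKM + 1) between Cct7 KD and its control for each tested gene of the BCL2 family members and 5 further lists; filled symbols passed the test, black is FPKM as deposited, green after median-of-ratios scaling, and red bars are list medians. The 9 death receptor genes lie above 0 on both scales, while the medians of 3 lists (caspases, inhibitors of apoptosis, and binders and regulators) go from 0.15 to below 0 with scaling.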

How the data were processed

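The values are FPKM, deposited by the authors in a separate table per knockdown and control. HTSeq and mm10 are named in the submitters' processing notes. The aligner, the annotation, the gene lengths, any filter and the strand setting of the counting were not given in the sources used here. IDs listed 2 times in a table (8 and 6) were left out, and symbols and coordinates came from GENCODE vM21 (GRCm38). The 10 genes and the lists were chosen with earlier results of these data known.

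Depth was estimated from the step of low FPKM values, and accepted where at least 95% of values of 0.5 to 20 fragments were whole within 0.05; the precision of a level follows from its fragments, given for Bcl2, Bik and Mcl1. The test was limma 3.58.1 in R 4.3.3 (eBayes, trend on) applied to log2(FPKM + 1), with 4 libraries per comparison and only genes averaging 1 FPKM or more in them. Benjamini-Hochberg adjusted p under 0.05 over all genes counted as called. The fit was tested on simulated data, with 50 genes changed at each size among 12547 in the Cct7 KD setting. There it called 10 of 50 log2 changes of 0.25, 28 of 0.5, 38 of 1 and 50 of 2. Among 12347 unchanged genes 5 were called. In the data a far larger share was called (11055 of 13588 genes in Cct7 KD). The adjusted p threshold is less strict where more genes change, so these rates do not carry over to the data. Small changes that did not pass may still have been missed. The remainder is Cct5 KD minus 1.125 times Cct7 KD of the same number. Other settings were median-of-ratios and common-total scaling, the remainder, a replicate block, no filter, a minimum fold of 2, a pseudocount of 0.1, a joint fit of the 8 libraries and leaving out each library. A wider BH3-only sum (Pmaip1, Bbc3 and Hrk added) was chosen after seeing the data.

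Named genes were the 10 members, other family genes averaging 1 FPKM or more over the 8 libraries, and of each further list the 4 with the smallest p in Cct7 KD and exceptions to the direction of most called genes where there were 5 or fewer. Not every gene that this rule takes is reported here by name. Promoter windows were RefSeq sequences from GRCm38.p6, and summaries were made with Python 3.11.15 and pandas 2.3.3.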

Additional observations from a re-analysis of the deposited data

Results flagged for a closer look

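Bid lay on opposite sides of its controls in the 2 knockdowns, in every library. Its log2 change was -0.10 in Cct7 KD and 0.37 in Cct5 KD. Bmf did the same, with -0.49 in Cct7 KD and 0.0947 in Cct5 KD. The difference between the knockdowns was not tested for either gene, since the Cct5 KD values contain those of Cct7 KD. After median-of-ratios scaling both genes were lower in both knockdowns, Bid by -0.34 and -0.42 and Bmf by -0.71 and -0.65.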

How the results depend on the processing

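With median-of-ratios scaling, 2 members were called lower in Cct7 KD and 3 in Cct5 KD; the remainder also gave 3 and scaling to a common total 2. Asking for a fold of at least 2 left 1 member higher and 0 lower in Cct7 KD, with 2734 of all genes, and 4724 of all genes in Cct5 KD. Leaving out single libraries, 1 to 2 members were called lower in Cct7 KD; without replicate 2 of the Cct7 controls Bid was called, at -0.17. Between the controls, 444 genes were called with all 8 libraries in one fit, 20 with a common total and 0 to 103 without single libraries (103 without replicate 1 and 19 without replicate 2 of the Cct7 controls), against 0 as reported; these counts include genes outside the family. Signs turned as follows. In Cct7 KD, median-of-ratios scaling gave -0.0327 for Bcl2l11, -0.11 for Bik, -0.16 for Bax and -0.0239 for Bcl2l12, and Bik lay between -0.0847 and 0.167 when single libraries were left out, with -0.0847 without replicate 2 of the controls and -0.00063 without replicate 2 of Cct7 KD. In Cct5 KD, median-of-ratios scaling, the remainder and, for the last 2, a common total gave -0.20 and -0.75 for Bcl2l11, -0.42, -0.34 and -0.19 for Bid, and -0.65, -0.38 and -0.43 for Bmf; with a common total Bcl2l11 was 0.02 and not called, and with all 8 libraries in one fit Bmf passed the test. Bax was called higher, at 0.14, with a common total and without replicate 2 of Cct7 KD. The cause was not tested. Same-numbered libraries did not deviate together (correlations -0.04 in Cct7 KD, -0.01 in Cct5 KD and 0.04 in the controls), so the numbers were not taken as pairs. With the replicate number as a block, 6 members were higher and 1 lower in Cct7 KD and 8 higher and 0 lower in Cct5 KD, and 10968 of all genes were called in Cct7 KD and 12740 in Cct5 KD, against 11055 and 12662 without it; the block changed no call of a member. Depth limits Bcl2 and Bik, the members with the fewest fragments.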

Other observations

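Genes whose products bind, modify, degrade or transcribe BCL2 family members were counted as well. Of 24 tested in Cct7 KD, 15 were higher and 6 lower (49.3% and 32.0% of all genes), with a median log2 change of 0.15, against 0.15 over all genes; with median-of-ratios scaling 9 were higher and 13 lower (37.1% and 44.0% of all genes). Fbxw7, part of a ubiquitin ligase that targets MCL1, was 7.59 and 7.56 FPKM in the Cct7 controls and 19.4 and 18.7 in Cct7 KD (log2 change 1.23, adjusted p = 6.24e-06 from limma; 1.00 after scaling). Dynll1 and Dynll2, dynein light chains that hold BIM and BMF, rose by 1.11 and 0.83 (0.86 and 0.58 after scaling). Trp53, which encodes the transcription factor p53 that acts on Bbc3 and Pmaip1, went from 79.0 and 77.9 FPKM to 160.0 and 160.0 (1.02, adjusted p = 2.86e-06; 0.77 after scaling), beside a fall of Bbc3 and a rise of Pmaip1. The 4 genes with the smallest p thus all rose. The 6 lower genes, named after their values were seen, were Myc (-1.33), Ywhae (-0.72), Rps6ka1 (-0.63), Vdac1 (-0.60), Usp9x (-0.27) and Ywhah (-0.20). In Cct5 KD 21 of the 24 were higher and 2 lower (all genes 78.0% and 11.3%), with scaling 11 and 13 (37.7% and 43.7%), and in the remainder 8 and 11 (42.1% and 42.8%).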
